A study of Macaca fascicularis with 16 samples.

Results

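The interaction of estradiol and tamoxifen was measured in endometrial tissue from 16 female cynomolgus macaques (Macaca fascicularis) past menopause, as the difference between what estradiol did in the presence of tamoxifen and what it did in its absence. All 16 of the 16 samples of the series entered, since the randomized arms form a complete 2 x 2 design. The control arm received placebo. The estradiol arm was fed a low dose of micronized estradiol, 0.25 mg for every 1800 kcal. The tamoxifen arm was fed tamoxifen, a selective estrogen receptor modulator, at 20 mg for every 1800 kcal and no estradiol. The combination arm received both drugs at those same amounts. Each arm held 4 animals, every animal was sampled after 4 months, and 1 array was hybridised per animal. The animals were postmenopausal in every arm, so the placebo arm stands for an endometrium with little ovarian hormone. The probes follow the rhesus macaque genome, that of a close relative, and their match to cynomolgus transcripts was not tested.

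Estradiol acts mainly through estrogen receptor alpha, a transcription factor that switches genes on or off when it is bound by hormone. Tamoxifen occupies the same receptor, and the receptor that carries it recruits coactivators in some tissues and corepressors in others; it acts as an antagonist in breast and as a partial agonist in uterus. With a partial agonist present, a hormone can find its response already switched on, can find it held down, or can add to it.

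For each probe set the interaction was (combination minus tamoxifen) minus (estradiol minus control), on log2(signal + 4.81). It is 0 where the log2 changes of the drugs add up, which means that their fold changes multiply. An interaction opposite in sign to the estradiol change means that estradiol did less in that direction when tamoxifen was present, or that its change reversed. The test was limma with Benjamini-Hochberg adjustment over 31659 probe sets, at an adjusted p of 0.05, and 10705 genes were followed through their brightest probe set. The estradiol, tamoxifen and combination changes against control share the 4 control arrays, so they are given side by side and not correlated. The estradiol change without tamoxifen and that with tamoxifen have no array in common, and neither have the tamoxifen changes without and with estradiol.

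The deposited signals were scaled to a common trimmed mean of 250.0 on every array, and their medians ran from 58.7 to 70.3. The median correlation between arrays was 0.962 within arms and 0.936 across arms. Above the low-signal filter, 15 epithelium markers, 19 stroma fibroblast markers and 16 smooth muscle markers were measured. The filter also kept 14 of the 16 annotated T and NK cell markers, so passing it does not identify the tissue. In the estradiol 4 and tamoxifen 1 arrays, the smooth muscle markers averaged -3.06 and -0.81 (log2 deviation from the 16-array mean), where the other arrays ran from -0.04 to 0.60 with estradiol 1 to 3 at 0.16 to 0.36. The estradiol 3 array showed the weakest proliferative response of its arm, with a mitosis gene level of 0.43 against 0.87 to 1.17 on the other 3. The 3' to 5' log2 ratio of the actin control probes averaged 0.92 ± 0.11 in the controls (SD, n = 4) and 0.57 ± 0.18, 0.52 ± 0.04 and 0.55 ± 0.08 in the estradiol, tamoxifen and combination arms. That ratio compares probes at both ends of a transcript and is used as a sign of RNA integrity. It was highest in controls, and its own interaction was 0.37. The same ratio of the GAPDH control probes was 0.15 ± 0.05 in the controls (SD, n = 4) and -0.01, -0.02 and 0.06 in the other arms, with an interaction of 0.24, and that of the EF1a probes had an interaction of -0.01. A fit with the actin ratio as a covariate, chosen after seeing the data, is given beside the main counts. A whole-tissue sample holds many cell types, and a lower signal from fewer cells of a type and a lower signal per cell cannot be told apart.

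Estradiol changed many genes of the endometrium when given alone, and none passed the test when tamoxifen was present. Without tamoxifen, estradiol raised 1766 genes (16.5% of those tested) and lowered 1410 (13.2%). With tamoxifen, it changed 0 genes (0%), and the smallest adjusted p was 0.999865. At an unadjusted p below 0.05 the same contrast gave 1283 probe sets, 4.05% of those tested. The median 95% interval of this contrast reached 0.36 log2 units to either side, and in 9533 of the 10705 genes (89.1%) the interval lay inside a 2-fold change. The median absolute change was 0.11 with tamoxifen and 0.31 without it. The estradiol count without tamoxifen was 1330 with the actin covariate.

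Tamoxifen alone raised 920 genes (8.59%) and lowered 818 (7.64%). On top of estradiol it raised 48 (0.448%) and lowered 94 (0.878%). The combination, against control, raised 1138 genes (10.6%) and lowered 973 (9.09%). The count for tamoxifen alone fell without most single arrays. It was 1154 genes without tamoxifen 1, 1224 without tamoxifen 4, 1240 without control 1 and 1300 without tamoxifen 3. It rose only without estradiol 3 and without estradiol 4, to 1852 and 1940. With the actin covariate it was 97. The count on top of estradiol moved the most, from 18 genes without estradiol 1 to 462 without estradiol 3, and it was 57 without estradiol 4, 31, 28, 26 and 56 without combination 1, 2, 3 and 4, 70 without estradiol 2 and 232 without tamoxifen 1.

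Because the estradiol changes with and without tamoxifen come from different arrays, genes chosen in the one can be read in the other. The 3176 genes that changed with estradiol alone had a median change of 0.67 in their own direction, a value raised by the selection. In the presence of tamoxifen the same genes had a median change of 0.01 in that direction. Of them 1653 (52.0%) went the same way, where 50.3% of all genes did. At an unadjusted p below 0.05 (limma), 85 went the same way and 59 the opposite way. Over the 16 fits that each left out 1 array, that median ran from -0.03 to 0.05. The 1738 genes that changed with tamoxifen alone had a median of 0.65. In the presence of estradiol the same genes had a median of -0.06, with 41.1% going the same way, where 45.6% of all genes did. At an unadjusted p below 0.05 (limma), 174 went the same way and 269 the opposite way. Across 10705 genes Pearson's r between the estradiol changes was 0.07, and between the tamoxifen changes 0.05. Genes are not independent replicates, so these are descriptions.

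**Figure D1:**
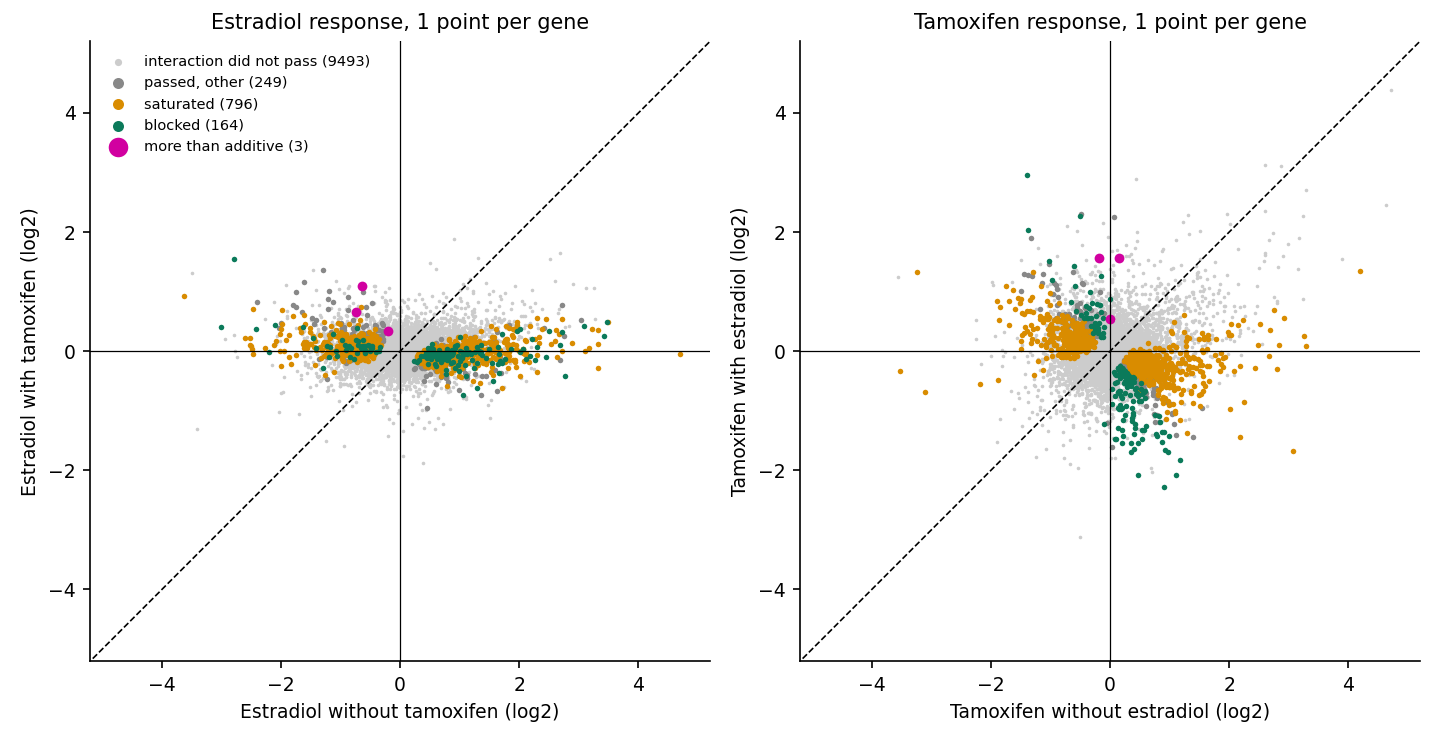
Log2 change of each of 10705 genes with estradiol (left) and tamoxifen (right), given alone on the horizontal axis and on top of the other drug on the vertical axis; colours mark the interaction classes and the dashed line marks equal change. The estradiol cloud lies along the horizontal axis, with a median absolute change of 0.31 without tamoxifen and 0.11 with it.

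The interaction itself passed in 1212 genes (11.3%), 701 below 0 (6.55%) and 511 above 0 (4.77%). At the level of probe sets, 3019 passed. The count was 725 without estradiol 1, 771 without estradiol 2, 775 without combination 3 and 1761 without estradiol 3. The part below 0 was 435, 447 and 444 without estradiol 1, estradiol 2 and combination 3, and the part above 0 was 290, 324 and 331. The interaction count was 367 when the actin ratio entered as a covariate: 277 of the 1212 genes then still passed and 0 turned sign. The covariate left the median size of the interaction at 1.01 times and raised its standard error to 1.38 times. The interaction count was 958 without both estradiol 4 and tamoxifen 1, of which 768 were among the 1212.

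The main effects of the drugs, averaged over the presence and absence of the other, are orthogonal to the interaction in a balanced design. Their random errors are therefore uncorrelated with its error, apart from a shared estimate of the spread. Both are still computed from the same arrays. A shift confined to the control or the estradiol arm enters the main effect of estradiol and the interaction with opposite signs. For the main effect of tamoxifen this holds for the control and the tamoxifen arm. Where a drug changed a gene little in the presence of the other, an opposing interaction follows from its main effect. The shares of opposing interactions are therefore descriptions and not independent evidence of interaction. The main effect of estradiol passed in 1342 genes (12.5%). The interaction opposed that effect in 1319 of them (98.3%), and in 683 it passed, opposing in all 683. Over all genes 77.2% of interactions opposed the main effect of estradiol and 11.3% passed. In the 1342 genes the median estradiol change in its own direction was 0.82 without tamoxifen and 0.09 with it. The count was 885 without estradiol 1, 849 without estradiol 2, 1823 without estradiol 3 and 583 with the actin covariate.

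The main effect of tamoxifen passed in 586 genes (5.47%). Here the interaction opposed in 452 (77.1%). It passed against the effect in 119 and in the same direction in 10, where 11.3% of all genes passed. The 77.2% over all genes given above is for the main effect of estradiol, and no such share was taken for tamoxifen. The median tamoxifen change was 0.79 without estradiol and 0.42 with it. The count was 363 without combination 1, 370 without combination 2 and 57 with the actin covariate. Both main effects passed in one direction in 184 genes, of which 181 had an opposing interaction and 90 a passing one. In 10 genes the main effects passed in opposite directions.

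Of the 1212 interacting genes, 796 were saturated (7.44% of genes tested): each drug alone moved the gene the same way, and the combination reached at least 0.5 of the smaller single-drug change but not their sum. Estradiol raised 445 of them and lowered 351. In the direction of the estradiol change, the medians were 0.81 for estradiol, 0.65 for tamoxifen and 0.58 for the combination. The combination lay below the smaller single change in 491 genes, between both in 258 and above the larger in 47. The rule did not require the combination to reach the estradiol level, so a gene of this class can lie well below it. Tamoxifen on top of estradiol passed in 12 of the 796. In 667 of the 796 genes all 4 control arrays lay outside the range of all 12 treated arrays, which held for 12.7% of genes tested; the rule for the class used the same contrasts, so this is a description. The count was 528 without estradiol 1, 520 without estradiol 2, 501 without tamoxifen 1, 990 without estradiol 3 and 61 with the actin covariate. The actin ratio separated controls from treated arrays in the same way, apart from estradiol 4 at 0.83 and control 4 at 0.76, and its part in this class was not tested beyond that fit.

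Fibrillar collagens and the enzymes that mature them were among the genes of the saturated class that rose. COL1A1, PCOLCE and LOXL2 rose more with estradiol alone than with both drugs. Of 33 measured extracellular matrix genes, 15 passed, each below 0, against 6.55% of all genes; their median changes with estradiol, tamoxifen and both drugs were 0.54, 0.44 and 0.39, where all genes had 0.01, -0.02 and -0.01. With the actin covariate 8 passed below 0 and 1 above 0. COL1A1, the alpha 1 chain of type I collagen, gave signals of 1724, 1746, 1036 and 1451 on the control arrays and 6751, 7613, 4209 and 6357 on the estradiol arrays. Its signals were 3630.2, 4109, 3018 and 4417 with tamoxifen and 6059, 3804, 2723 and 3448 with both drugs. The control arrays were the 4 lowest with no overlap, while the combination arrays spanned the range of the tamoxifen arm and reached into that of the estradiol arm. The log2 changes of COL1A1 were 2.06 with estradiol, 1.36 with tamoxifen and 1.39 with both, and its interaction was -2.03 (SE 0.33, adjusted p = 0.00343). COL1A2, the partner chain, had an interaction of -1.65 (SE 0.22, adjusted p = 0.00133).

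PCOLCE, which enhances the cleavage of the procollagen C-terminus, rose from 328, 263, 335 and 325 in controls to 2219, 1599, 1265 and 1309 with estradiol, and stood at 1088, 590.1, 673 and 803 with tamoxifen and 855, 513, 509 and 577 with both. All 4 estradiol arrays were above every other array, and all 4 controls were below. Its interaction was -2.66 (SE 0.30, adjusted p = 0.00119). LOXL2, a collagen cross-linking oxidase, changed by 2.33 with estradiol, 1.10 with tamoxifen and 1.33 with both (interaction -2.10, SE 0.30, adjusted p = 0.0021). P4HA2, a prolyl hydroxylase, had an interaction of -1.54 (SE 0.20, adjusted p = 0.00133). TNC, tenascin C, rose by 3.33 with estradiol and had an interaction of -2.97 (SE 0.57, adjusted p = 0.00704). Of 19 stroma fibroblast markers, 11 passed, each below 0, against 6.55% of all genes, some genes being on both lists. With the actin covariate 5 passed. TNC missed the threshold with the actin covariate (adjusted p = 0.0659).

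DMBT1, AGR2 and TSPAN8, genes of secretory epithelium, rose with each drug. DMBT1, a secreted scavenger receptor of mucosal surfaces, had the lowest saturated interaction: its signals were 58.3, 87.5, 141 and 94.5 in controls, 5382, 2487, 1976 and 1427 with estradiol, 1343, 1263, 627 and 391 with tamoxifen and 719.8, 529.7, 603 and 1579 with both. Every treated array was above every control array. The changes were 4.70 with estradiol, 3.08 with tamoxifen and 3.03 with both, and the interaction was -4.74 (SE 0.65, adjusted p = 0.00163). AGR2, an endoplasmic reticulum protein needed for mucin folding, changed by 2.67, 2.48 and 2.77 (interaction -2.37, SE 0.44, adjusted p = 0.00584), and its relative AGR3 had an interaction of -2.04 (SE 0.45, adjusted p = 0.013). TSPAN8, a tetraspanin, also passed at -1.22 (SE 0.30, adjusted p = 0.0217). Of 14 measured mucous and secretory genes 3 passed, DMBT1, AGR2 and TSPAN8, each below 0, where 6.55% of all genes did. The list's medians were nevertheless 0.91, 1.35 and 1.53. TFF3, a mucosal repair peptide, gave 46.9, 49.1, 36.4 and 28.1 in controls and 146, 91.1, 133 and 130.2 with both drugs, and its interaction did not pass at 0.67 (SE 0.51, adjusted p = 0.433). That value ran from 0.28 to 0.91 over the fits without 1 array, the lower end being without estradiol 4, and was 1.59 with the actin covariate. TSPAN8 missed the threshold with the actin covariate (adjusted p = 0.09).

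The broad epithelium markers had medians of 1.19, 1.05 and 1.42 for estradiol, tamoxifen and the combination. The interaction passed below 0 in 1 of 15, near the 6.55% of all genes, and in 4 without estradiol 3 or without tamoxifen 2. The 1 was KRT8, a keratin of simple epithelium (-2.16, SE 0.57, adjusted p = 0.0279), and it missed the threshold in 4 of 16 fits without 1 array, with the highest adjusted p, 0.0573, without combination 4, and it was 0.104 with the actin covariate. EHF, an epithelial transcription factor, had an interaction of -1.33 (SE 0.42, adjusted p = 0.0569), and did not pass. The mean level of the 15 markers was -0.75 ± 0.03 in controls, 0.24 ± 0.52 with estradiol, 0.20 ± 0.57 with tamoxifen and 0.32 ± 0.20 with both (SD, n = 4). All 4 control arrays lay below all treated arrays, and the part of epithelial content in the saturated genes was not tested.

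The growth factor and signalling genes included several textbook estrogen targets. Of 24 measured estrogen-induced genes, 9 passed, each below 0, against 6.55% of all genes; the medians were 0.73, 0.72 and 0.62. With the actin covariate 3 passed. IHH, the epithelial hedgehog ligand that signals to stroma, gave 192, 179, 377 and 142 in controls, 848, 1368, 665 and 1380.5 with estradiol, 2137, 872, 1441 and 1576 with tamoxifen and 1759, 1700.3, 1568 and 1572 with both. The 12 treated arrays were all above the controls, and the combination arrays lay within the range of the tamoxifen arrays. The changes were 2.27 with estradiol, 2.76 with tamoxifen and 2.96 with both, with an interaction of -2.07 (SE 0.43, adjusted p = 0.0101). IGF1, a growth factor that stroma makes, changed by 1.26, 1.26 and 1.06 (interaction -1.46, SE 0.25, adjusted p = 0.00408). With the actin covariate the interaction of IGF1 was -1.30 at an adjusted p of 0.0548.

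IGFBP2, a binding protein for insulin-like growth factors, showed equal changes with each drug alone. Its signals were 1115, 937, 1141 and 867 in controls, 3469.7, 3537, 3098 and 2191 with estradiol, 2642, 3539, 3001 and 2991 with tamoxifen and 3932, 3166, 3967 and 3224 with both. The controls were the 4 lowest arrays, and the treated arms overlapped. The changes were 1.58 with estradiol, 1.58 with tamoxifen and 1.81 with both, and the interaction of -1.35 (SE 0.21, adjusted p = 0.0028) became -1.08 at an adjusted p of 0.0509 with the actin covariate. IRS2, an adaptor of insulin and IGF receptors, ran the other way, at -1.58, -1.12 and -1.03 (interaction 1.67, SE 0.29, adjusted p = 0.00417). IGF1, IGFBP2 and IRS2 were the 3 of 15 measured IGF axis genes that passed. They were 2 below 0 and 1 above 0, where 6.55% and 4.77% of all genes passed, and the list's median interaction was -0.02. Those below 0 were 4 without estradiol 4 and 0 with the actin covariate, and the 1 above 0 became 3 without estradiol 3 and 2 without control 2 or combination 1. IRS2 missed the threshold with the actin covariate (adjusted p = 0.0744).

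PGR, the progesterone receptor and a classic estrogen-induced gene, gave 599.9, 373, 809 and 831 in controls and 1399, 1302, 1527 and 1796 with estradiol. Its signals were 1324, 1063, 1054 and 1085 with tamoxifen and 886, 1239.6, 1151 and 709 with both, and combination 4 lay below controls 3 and 4. The changes were 1.26 with estradiol, 0.85 with tamoxifen and 0.64 with both; the interaction was -1.47 (SE 0.32, adjusted p = 0.012), and the combination change did not pass at an adjusted p of 0.0657. ESR1, which encodes estrogen receptor alpha, had an interaction of -0.58 (SE 0.30, adjusted p = 0.237) and did not pass. FKBP4, a co-chaperone of steroid receptors, did at -0.79 (SE 0.16, adjusted p = 0.00904). EGFR, the receptor for epidermal growth factor, rose by 1.84, 1.37 and 1.47 (interaction -1.74, SE 0.27, adjusted p = 0.00288; adjusted p = 0.0521 with the actin covariate). WNT5A, a stromal WNT ligand, had an interaction of -1.66 (SE 0.34, adjusted p = 0.00892). HOXA11, a homeobox gene of the uterus, had -0.69 (SE 0.15, adjusted p = 0.0122). FKBP4 missed the threshold with the actin covariate (adjusted p = 0.0553).

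**Figure D2:**
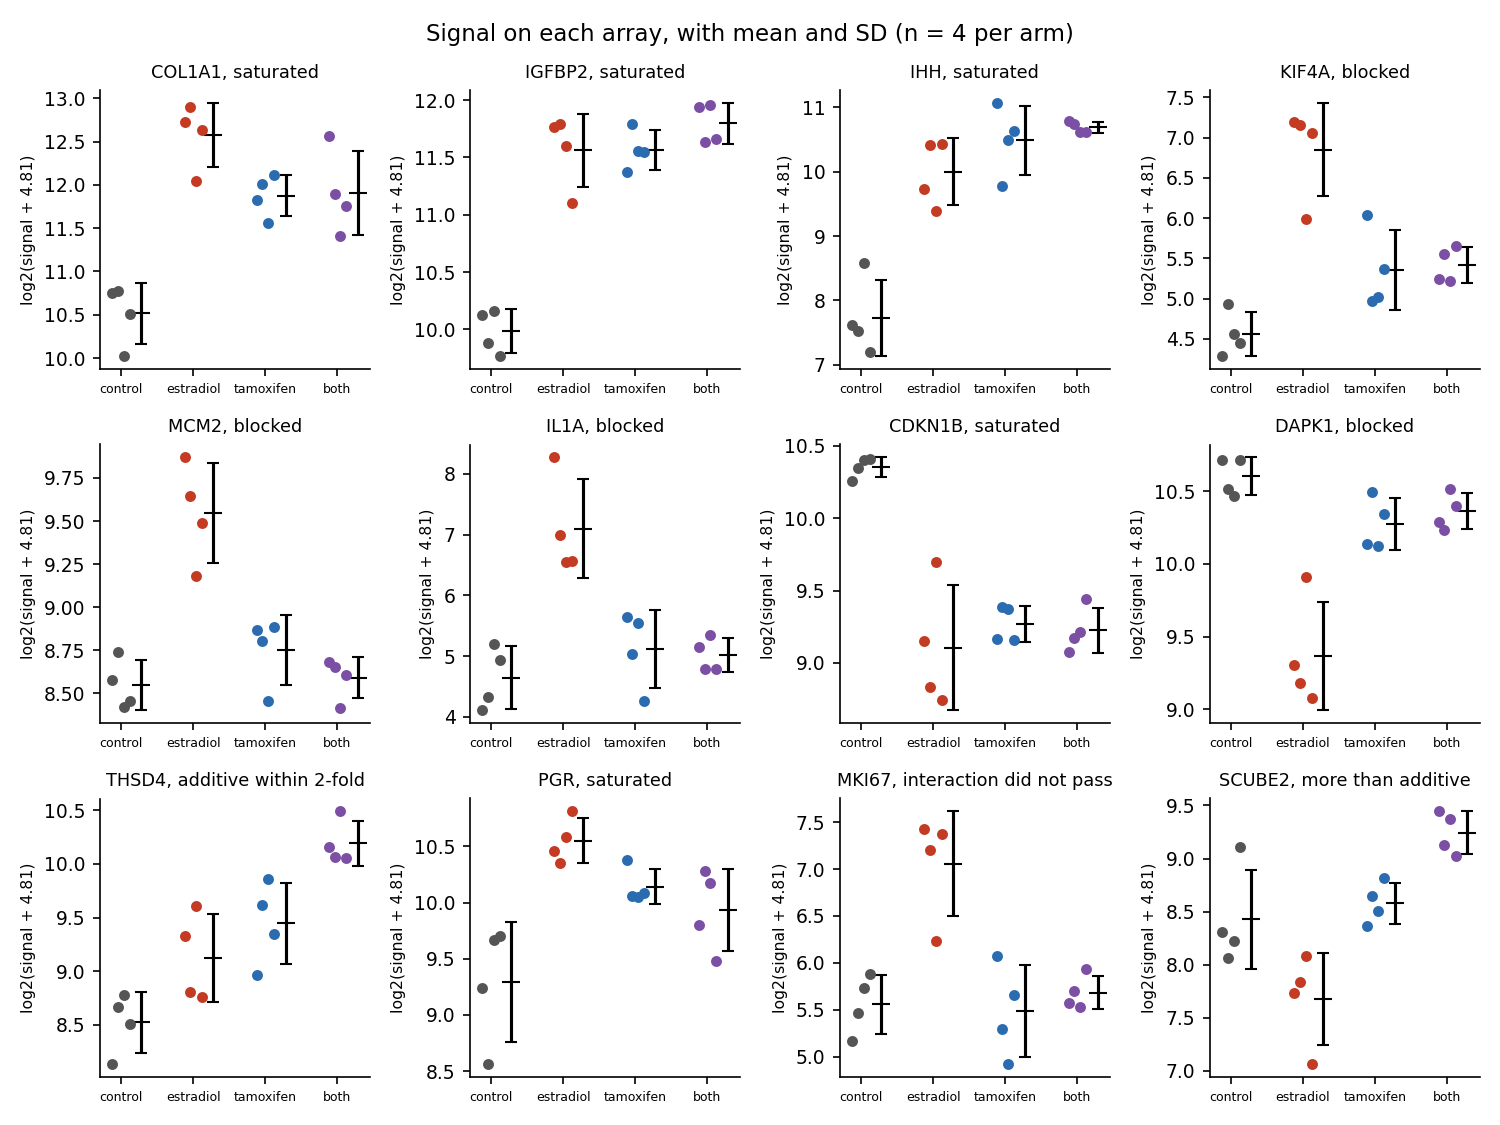
Log2(signal + 4.81) of 12 genes on each of the 16 arrays, with the mean and SD of each arm (n = 4). COL1A1, IGFBP2 and IHH step from the controls to a treated level, KIF4A, MCM2 and IL1A are high in the estradiol arm, and THSD4 is highest with both drugs.

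Genes of protein folding in the endoplasmic reticulum, which serves secretion, are part of the unfolded protein response. Of 15 measured genes of this response, 10 rose and 2 fell with estradiol, where 16.5% of all genes rose and 13.2% fell, and 7 rose and 2 fell with tamoxifen (8.59% and 7.64%). The interactions of 6 passed below 0 and of 2 above 0, where 6.55% and 4.77% of all genes did; with the actin covariate 3 passed below 0 and 0 above 0. PDIA6, a disulfide isomerase, changed by 1.23, 0.73 and 0.83 (interaction -1.12, SE 0.15, adjusted p = 0.00144), PDIA4 had an interaction of -0.85 (SE 0.18, adjusted p = 0.0104), and the co-chaperone DNAJB11 one of -0.94 (SE 0.14, adjusted p = 0.00223). The 2 above 0, named after their values were seen, were lowered by each drug alone: DDIT3, a stress transcription factor that promotes cell death (0.79, SE 0.22, adjusted p = 0.0341), and HERPUD1, which takes part in degradation (0.59, SE 0.14, adjusted p = 0.0217). DDIT3 missed the threshold in 9 of 16 fits without 1 array, with the highest adjusted p, 0.0704, without combination 4. The interactions of DDIT3 and HERPUD1 were 0.49 and 0.36 with the actin covariate and did not pass (adjusted p = 0.354 and 0.28), and that of PDIA4 had an adjusted p of 0.055. KDELR3, a retrieval receptor for resident proteins of this compartment, had -1.93 (SE 0.24, adjusted p = 0.00119).

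Other saturated genes that rose had diverse roles. SLC25A5, the mitochondrial carrier of ADP and ATP, was among the most uniform, with 983, 1078, 1073 and 985 in controls and 2619.6, 2632, 2318 and 2492 with both drugs (interaction -1.34, SE 0.15, adjusted p = 0.00119). MEST, an imprinted gene (-2.43, SE 0.29, adjusted p = 0.00119), and AFF3, a nuclear protein (-2.00, SE 0.24, adjusted p = 0.00119), also passed. The enzymes at the cell surface MME and CPM, neprilysin and carboxypeptidase M, changed by 3.17 and 3.48 with estradiol, with interactions of -3.11 (SE 0.61, adjusted p = 0.00766) and -2.99 (SE 0.60, adjusted p = 0.00814). CKS2, a partner of cyclin-dependent kinases, had -3.11 (SE 0.40, adjusted p = 0.00126), and it rose with tamoxifen, by 2.25. The lipid transporter MFSD2A, the sialyltransferase ST6GAL2, the neurofilament NEFH and the proteoglycan SDC1 had interactions of -3.21, -3.61, -2.86 and -2.01 (adjusted p = 0.00615, 0.00563, 0.0174 and 0.00715). CYP51A1 of cholesterol synthesis (-1.14, SE 0.29, adjusted p = 0.0253) and the retinoid genes RDH10 and RBP4 (-2.10 and -2.33) passed with less margin: they missed the threshold in 5, 2 and 12 of 16 fits without 1 array. NEFH, CYP51A1, RDH10 and RBP4 missed the threshold with the actin covariate (adjusted p = 0.0503, 0.138, 0.203 and 0.125).

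FOXO factors are held out of the nucleus by insulin and IGF signalling. Of 16 measured FOXO factors and targets, 6 passed above 0 and 1 below 0, where 4.77% and 6.55% of all genes did; with the actin covariate 4 passed above 0 and 0 below 0. CDKN1B, the cell-cycle inhibitor p27, gave 1220.2, 1296, 1347 and 1354 in controls, 563, 450.4, 825 and 424 with estradiol, 569, 664, 658 and 567 with tamoxifen and 535, 572, 589 and 691 with both. The controls stood above all 12 treated arrays, and estradiol 3 was the highest of the treated. The changes were -1.25 with estradiol, -1.08 with tamoxifen and -1.13 with both, and the interaction was 1.20 (SE 0.23, adjusted p = 0.00692). FOXO4, a transcription factor of this family, had 1.44 (SE 0.25, adjusted p = 0.00482), and the stress gene GADD45B had 0.94 (SE 0.20, adjusted p = 0.0104). The member below 0 was GADD45A (-0.72, SE 0.17, adjusted p = 0.0155), which was raised. Without estradiol 3, 11 of the 16 passed above 0. FOXO4 and GADD45A missed the threshold with the actin covariate (adjusted p = 0.0729 and 0.147).

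Some immediate early genes, which answer stimuli fast, fell as well. FOS gave 868, 596, 633 and 1957 in controls and 147, 184, 195 and 212 with estradiol, and changed by -2.26 with estradiol, -1.60 with tamoxifen and -1.55 with both (interaction 2.32, SE 0.44, adjusted p = 0.00635). FOSL2 had 1.31 (SE 0.25, adjusted p = 0.00687). Of 18 measured, 4 passed above 0, FOS, FOSL2, KLF6 (1.17) and DUSP1 (1.09), and 1 below 0, MYC (-1.12, SE 0.29, adjusted p = 0.0248). KLF6 and MYC were named after their values were seen; MYC and DUSP1 belonged to the blocked class described below. The shares over all genes were 4.77% above 0 and 6.55% below 0. KLF6 and MYC missed the threshold with the actin covariate (adjusted p = 0.0809 and 0.224).

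Vessel and hormone receptor genes were among the fallers. GPIHBP1, which anchors lipoprotein lipase in capillaries, gave 134, 197, 209 and 268 in controls and 23.8, 25.5, 44.2 and 33.5 with estradiol, with 89.1, 38.5, 76.8 and 40.5 and 56, 88.7, 60.9 and 40.4 in the tamoxifen and combination arms. The controls stood apart at the top (interaction 2.53, SE 0.43, adjusted p = 0.00358). FZD4, a WNT receptor, had 1.41 (SE 0.22, adjusted p = 0.00288). The prolactin receptor PRLR and the oxytocin receptor OXTR had 2.39 (SE 0.60, adjusted p = 0.0227) and 2.67 (SE 0.67, adjusted p = 0.0228), and OXTR missed the threshold in 2 of 16 fits without 1 array. GATA2, a transcription factor that works with the progesterone receptor, had 0.76 (SE 0.15, adjusted p = 0.00798), and PGRMC2, a membrane heme protein, 0.41 (SE 0.10, adjusted p = 0.0178). PTCHD1, PID1, THSD7A, CNTN5 and FIBIN had interactions of 1.98, 2.74, 2.83, 3.19 and 4.56 (adjusted p = 0.00119, 0.00728, 0.0148, 0.034 and 0.0299), of which CNTN5 missed the threshold in 10 and FIBIN in 6 of the 16 fits. GATA2, PGRMC2 and CNTN5 missed the threshold with the actin covariate (adjusted p = 0.0723, 0.123 and 0.0622). THSD7A rose in size to 4.26 in that fit.

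The blocked class held 164 genes (1.53% of genes tested), in which estradiol alone changed the gene and both tamoxifen alone and the combination stayed below 0.5 of that change. Estradiol raised 120 and lowered 44. In the direction of the estradiol change the medians were 0.88 for estradiol, 0.30 for tamoxifen and 0.23 for the combination. Tamoxifen on top of estradiol passed in 47 of the 164, so in the others the combination was not shown to differ from estradiol alone. In 73 of the 164 all 4 estradiol arrays lay outside the range of the 12 others, which held for 1.91% of genes tested; the rule for the class used these contrasts, so the count is a description. The reverse, a tamoxifen response that estradiol blocked, was found in 0 genes by the same rule. The blocked count depended on single arrays: it was 80 without estradiol 1, 97 without combination 3 and 426 without estradiol 3. It was 16 with the actin covariate.

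Most mitosis genes rose with estradiol alone, and few rose with the combination. Of 18 measured mitosis genes, 13 rose with estradiol, 1 with the combination and 0 with tamoxifen (limma; 2 at an unadjusted p below 0.05), where 16.5%, 10.6% and 8.59% of all genes did. The interaction passed below 0 in 6, all blocked, and above 0 in 0, where 6.55% and 4.77% of all genes did. At an unadjusted p below 0.05 there were 13 and 1 of the list. The list's medians were 1.5, 0.11 and 0.35, and that of its interaction was -1.27, against -0.01 over all genes. Tamoxifen on top of estradiol lowered 5, against 0.878% of all genes. These counts moved with single arrays. The interaction passed below 0 in 12 genes without estradiol 3, in 10 without tamoxifen 2 and in 3 without control 3, estradiol 1, estradiol 2, tamoxifen 1, tamoxifen 4 or combination 3. It passed in 2 without both estradiol 4 and tamoxifen 1, and in 1 with the actin covariate. The 5 genes lowered by tamoxifen on top of estradiol became 12 without estradiol 3, 3 without control 1 or control 3, and 0 without estradiol 1, 2 or 4 or any 1 combination array.

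KIF4A, a chromosome motor, gave signals of 14.8, 25.7, 18.8 and 17 in controls and 142, 138, 58.6 and 129 with estradiol. With tamoxifen they were 61.2, 26.4, 27.7 and 36.6, and with both drugs 32.9, 42.2, 32.5 and 45.7. Estradiol 1, 2 and 4 stood above all other arrays, whereas estradiol 3 lay below tamoxifen 1. The changes were 2.29 with estradiol, 0.79 with tamoxifen and 0.86 with both, and the interaction was -2.23 (SE 0.41, adjusted p = 0.00563). CCNB1, cyclin B1 of mitotic entry, had -2.02 (SE 0.50, adjusted p = 0.0215), and ZWINT, a kinetochore protein, -2.99 (SE 0.63, adjusted p = 0.0105). With the actin covariate CCNB1 had an adjusted p of 0.0749 and ZWINT one of 0.0737.

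MKI67, the Ki-67 proliferation antigen, gave 31, 39.2, 48.2 and 54.1 in controls, 167, 143, 70.2 and 161 with estradiol, 62.4, 34.6, 25.5 and 45.6 with tamoxifen and 42.9, 47.1, 41.3 and 56.2 with both. All estradiol arrays were above all others, and the other arms overlapped. Its interaction missed the threshold at -1.30 (SE 0.40, adjusted p = 0.0516), while tamoxifen on top of estradiol changed it by -1.37 (SE 0.28, adjusted p = 0.0341). TOP2A, the topoisomerase of dividing cells, had an interaction of -2.73 (SE 0.91, adjusted p = 0.0709) and did not pass. Its estradiol signals were 473, 479.7, 128 and 489, with estradiol 3 far below the rest. GREB1, a growth-related estrogen target, changed by 1.06 with estradiol, 0.18 with tamoxifen and 0.11 with both, and its interaction of -1.12 (SE 0.41, adjusted p = 0.0914) did not pass.

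Of 21 measured DNA replication genes, 11 rose with estradiol and 1 each with tamoxifen and the combination, where 16.5%, 8.59% and 10.6% of all genes did; the medians were 0.54, -0.01 and -0.07. The interaction passed below 0 in 5 and above 0 in 1, against 6.55% and 4.77% of all genes. MCM2, a subunit of the replicative helicase, gave 377, 424, 338 and 346 in controls and 931, 795, 575 and 714 with estradiol. Its signals were 462, 442, 346 and 468 with tamoxifen and 406, 398, 337 and 386 with both, and the estradiol arrays were the 4 highest. The interaction was -1.16 (SE 0.20, adjusted p = 0.00472), and tamoxifen on top of estradiol changed MCM2 by -0.96 (SE 0.14, adjusted p = 0.00847). The other members below 0 were CHAF1A, a chromatin assembly factor (-1.06, SE 0.28, adjusted p = 0.0267), and CDT1, MCM10 and GINS1 of origin licensing and firing (-2.07, -1.74 and -0.63), these 3 named after their values were seen. The member above 0 was the polymerase subunit POLE2 (0.39, SE 0.10, adjusted p = 0.0243), which fell. MCM2, CHAF1A and MCM10 were blocked, GINS1 and POLE2 were saturated, and CDT1 met neither rule. CHAF1A, CDT1, MCM10, GINS1 and POLE2 missed the threshold with the actin covariate (adjusted p = 0.0829, 0.247, 0.152, 0.163 and 0.219).

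Several of these calls were close. CHAF1A, CDT1, MCM10, GINS1 and POLE2 missed the threshold in 5, 11, 6, 8 and 1 of 16 fits without 1 array. The 5 below 0 became 10 without estradiol 3, 3 without combination 2, 2 without control 1 or tamoxifen 4, and 1 without estradiol 1, estradiol 2, tamoxifen 1 or combination 3; they were 1 with the actin covariate. Tamoxifen on top of estradiol lowered 7 of the 21, against 0.878% of all genes, and 4 with a replicate block or with the actin covariate. That count was 1 without estradiol 1, 2 or 4 or combination 1, 2 or 3, 2 without tamoxifen 3 or combination 4, 3 without control 1 or 4, and 4 without control 3. NASP, a histone chaperone that was not on the list, had -0.75 (SE 0.13, adjusted p = 0.00481). CCNE2, cyclin E2 of the start of S phase, had -1.12 (SE 0.29, adjusted p = 0.0268), but missed the threshold in 5 of 16 such fits. CDK4, the kinase of G1 progression, passed at -0.54 (SE 0.12, adjusted p = 0.0132) and was neither blocked nor saturated by the rules. CCNE2 and CDK4 missed the threshold with the actin covariate (adjusted p = 0.187 and 0.0833).

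**Figure D3:**
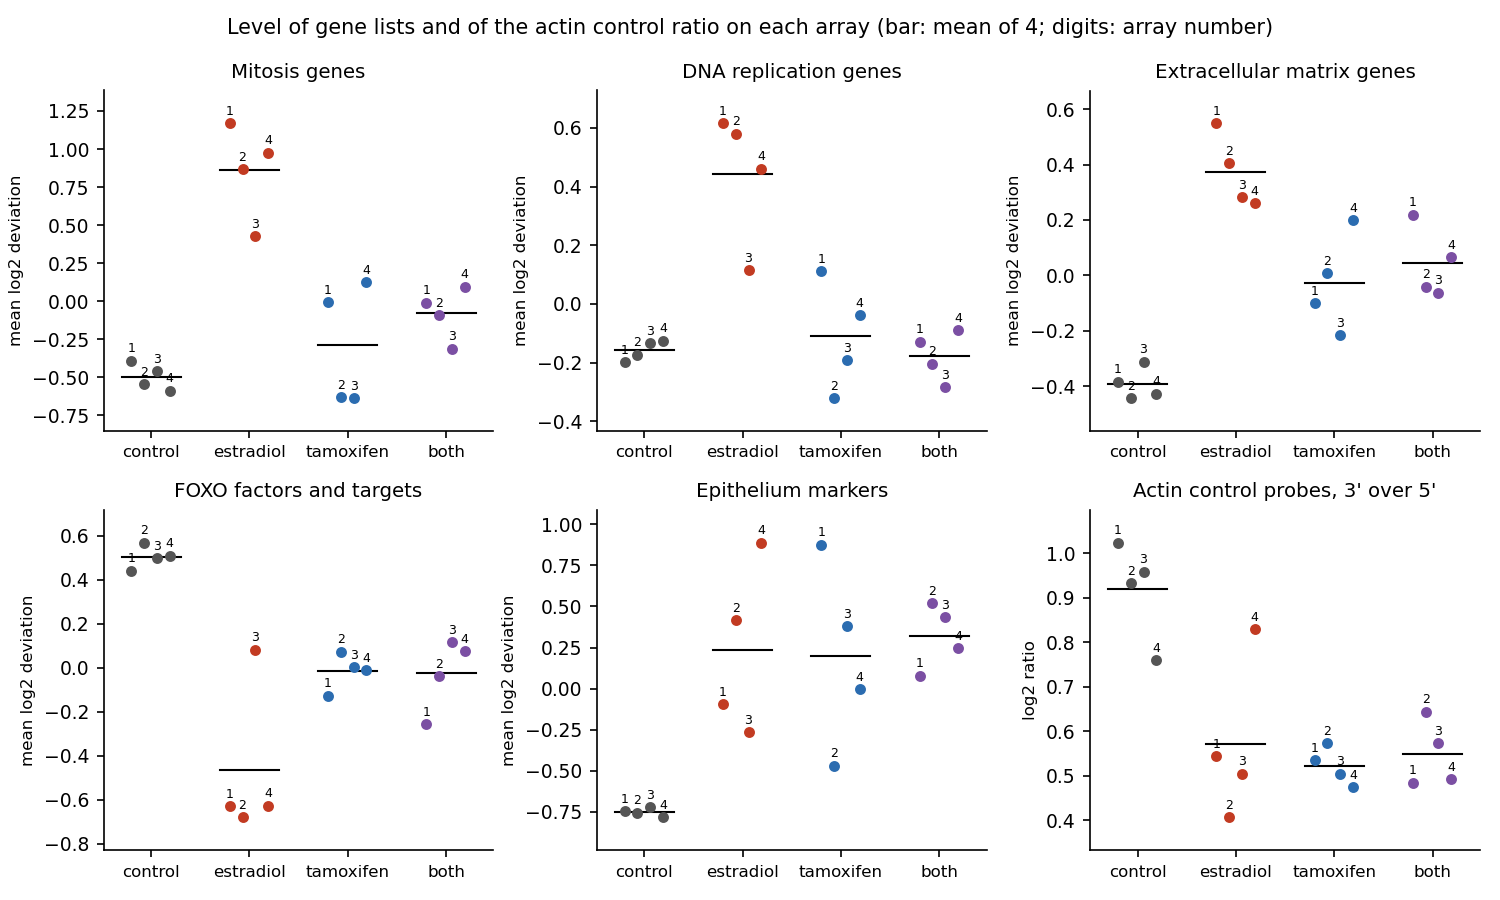
Mean log2 deviation from the 16-array mean of 5 gene lists, and the 3' to 5' log2 ratio of the actin control probes, on each array; digits are array numbers and bars are arm means. Mitosis and DNA replication genes are high in the estradiol arm with estradiol 3 lowest, while the epithelium markers and the actin ratio separate controls from most treated arrays.

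Blocked genes outside the cell cycle included a cytokine and matrix and skin-type genes. IL1A, interleukin 1 alpha, gave 12.5, 15.2, 32.1 and 25.9 in controls, 305, 123, 88.5 and 90 with estradiol, 45.2, 27.9, 42 and 14.3 with tamoxifen and 30.8, 22.8, 36 and 22.9 with both. The estradiol arrays were the 4 highest and the other arms overlapped. The changes were 2.45 with estradiol, 0.47 with tamoxifen and 0.38 with both and the interaction was -2.55 (SE 0.55, adjusted p = 0.0118); with the actin covariate its adjusted p was 0.122. DMKN, dermokine of stratified epithelium, had -3.18 (SE 0.65, adjusted p = 0.0096). TGFBI, a matrix protein induced by TGF beta, gave 9518, 6369.8, 4612 and 10753 with estradiol and 2425, 1103, 1323 and 2708 with both, with 1 tamoxifen array inside the estradiol range (interaction -3.18, SE 0.67, adjusted p = 0.0107; adjusted p = 0.062 with the actin covariate).

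HAND2, a stromal transcription factor that mediates progesterone action, changed by 0.80 with estradiol, 0.25 with tamoxifen and 0.11 with both (interaction -0.94, SE 0.23, adjusted p = 0.0202; adjusted p = 0.0503 with the actin covariate). SOX7, an endothelial transcription factor, had -1.53 (SE 0.33, adjusted p = 0.0118), which became -2.31 with the actin covariate. GFRA2, a co-receptor for neurturin, gave 354, 365, 312 and 346 with estradiol and 126, 106, 123 and 74.1 in controls, 198, 151, 145 and 76.1 with tamoxifen and 129.5, 103, 102 and 82.9 with both. The estradiol arrays were clear of all others (-2.04, SE 0.34, adjusted p = 0.00348). SPSB2, an adaptor of ubiquitin ligases, and RCN1, a calcium-binding protein of the endoplasmic reticulum, had -1.50 (SE 0.25, adjusted p = 0.00343) and -0.76 (SE 0.13, adjusted p = 0.00348).

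Blocked genes that estradiol lowered were fewer. DAPK1, a kinase that promotes cell death, gave 1679, 1458, 1412 and 1676 in controls, 627, 576, 957 and 535 with estradiol, 1123, 1436, 1111 and 1295 with tamoxifen and 1249, 1202, 1462 and 1347 with both. The estradiol arrays were the 4 lowest, estradiol 3 being nearest to the rest. The changes were -1.24 with estradiol, -0.33 with tamoxifen and -0.24 with both and the interaction was 1.32 (SE 0.22, adjusted p = 0.00322). DUSP1, a phosphatase that shuts off MAP kinases, had 1.09 (SE 0.23, adjusted p = 0.0108). FBXO32, a ubiquitin ligase component and FOXO target, gave 395, 241, 1345 and 113 with estradiol against 2835, 3124, 2742 and 2656 in controls, with 525, 1027, 1523 and 1697 for tamoxifen and 1149.5, 1491, 1446 and 1749.7 for both. Every control array stood above every treated array, so FBXO32 was also lower with tamoxifen alone. Estradiol 3 fell within the range of the arrays given tamoxifen (interaction 3.41, SE 0.75, adjusted p = 0.0126).

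The calls of SNX15 and CD200R1, both blocked, rested on few arrays. SNX15, a sorting nexin, gave 222, 209, 10.9 and 20.9 with tamoxifen, so that the arm was split, and its interaction was 4.34 (SE 1.26, adjusted p = 0.0411). CD200R1, an inhibitory receptor of myeloid cells, gave 5.98, 9.09, 110.0 and 10.4 with estradiol, with estradiol 3 at the control level (2.78, SE 0.82, adjusted p = 0.0447). SNX15 missed the threshold in 12 of 16 fits without 1 array (highest adjusted p 0.0781, without tamoxifen 4) and CD200R1 in 15 (0.0924, without estradiol 1). SNX15 and CD200R1 missed the threshold with the actin covariate (adjusted p = 0.15 and 0.095).

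A class called more than additive held genes whose combination change passed, had the sign of the interaction, and was larger in size than either single change and than their sum. It held 3 genes, and in each the estradiol change was below 0 and the combination change above 0, so that the combination ran opposite to estradiol alone. The estradiol change passed in 1 of them, SCUBE2. SCUBE2, a secreted protein with EGF-like domains, gave 312, 263, 295 and 546 in controls, 208, 224, 266 and 129 with estradiol, 324, 395, 358 and 445 with tamoxifen and 693, 555, 659 and 515 with both. Control 2 lay below estradiol 3, the other controls lay above the estradiol arrays, and combination arrays were high, with control 4 above 1 of them. The changes were -0.75 with estradiol, 0.15 with tamoxifen and 0.82 with both, and the interaction was 1.41 (SE 0.32, adjusted p = 0.0154), or 2.26 with the actin covariate. POPDC3, a membrane protein of muscle, had 1.74 (SE 0.40, adjusted p = 0.0164), and DHX58, a regulator of the antiviral response, 0.54 (SE 0.14, adjusted p = 0.0299). DHX58 missed the threshold in 10 of 16 fits without 1 array. POPDC3 and DHX58 missed the threshold with the actin covariate (adjusted p = 0.15 and 0.128). The class held 0 genes without combination 3 and with the actin covariate, and 1 without any single control array, estradiol 1, tamoxifen 3 or combination 1.

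The remaining 249 interacting genes fitted none of these rules. In the direction of the estradiol change their medians were 0.65 for estradiol, 0.42 for tamoxifen and 0.26 for the combination, so that many lay between blocked and saturated. KMO, an enzyme of tryptophan breakdown, changed by 2.68 with estradiol, 1.39 with tamoxifen and 1.24 with both (interaction -2.83, SE 0.69, adjusted p = 0.0197), and SFRP4, a secreted WNT antagonist of stroma, by 1.44 with estradiol, 0.79 with tamoxifen and 0.37 with both (-1.86, SE 0.37, adjusted p = 0.00846). CHDH of choline metabolism, VARS1, a tRNA synthetase, HSH2D, an adaptor of lymphocytes, and LOC696406 had interactions of -1.53, -0.97, -1.13 and -1.33. Above 0 were GSTT1, a glutathione transferase, and PIK3IP1, an inhibitor of PI3 kinase, at 2.50 (SE 0.42, adjusted p = 0.00348) and 2.30 (SE 0.37, adjusted p = 0.00314). VWF of endothelium and MT2A, a metallothionein, had 1.37 and 1.34. ASIP, DPEP2, SEMA3C and LOC720120 completed the highest interactions at 2.66, 2.78, 3.23 and 2.75, of which DPEP2 missed the threshold in 13 and SEMA3C in 12 of 16 fits without 1 array. With the actin covariate GSTT1 was 1.47 and SEMA3C 5.36. GSTT1, PIK3IP1, MT2A, DPEP2 and LOC720120 missed the threshold with the actin covariate (adjusted p = 0.0733, 0.0502, 0.214, 0.0801 and 0.0576). KMO, HSH2D and LOC696406 missed the threshold with the actin covariate (adjusted p = 0.0576, 0.0685 and 0.0516).

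Few genes met the rule for an additive response. Of the 184 genes with both main effects passing in one direction, 48 had an interaction whose 95% interval lay inside a 2-fold change. In 45 of the 48 it still opposed the effects and in 18 it passed. In 12 of the 48 it neither passed nor excluded 0. The interaction passed in 90 of the 184. A gene that neither passed nor met the rule is undecided, since the median interval over all genes reached 0.51 log2 units to either side. THSD4, a matrix-associated protein, gave 276, 402, 434 and 359 in controls, 637, 442, 774 and 429 with estradiol, 496, 778, 921 and 645 with tamoxifen and 1139, 1062, 1435 and 1056 with both. The combination arrays were the 4 highest, while the single-drug arms overlapped each other. The changes were 0.60 with estradiol, 0.92 with tamoxifen and 1.67 with both, with an interaction of 0.14 (95% interval -0.50 to 0.79). BTC, betacellulin, a ligand of the EGF receptor, changed by 0.86 with estradiol, 1.10 with tamoxifen and 1.69 with both, with an interval of -0.96 to 0.43. HTT and KALRN had intervals of -0.76 to 0.16 and -0.81 to 0.49. PTPRF, a phosphatase, met the rule with -0.95 to -0.25, but its interaction passed as well (-0.60, SE 0.17, adjusted p = 0.0342), and missed the threshold in 9 of 16 fits and, at an adjusted p of 0.255, with the actin covariate.

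IL15, a cytokine that sustains natural killer cells, gave 563, 641, 421 and 468 in controls, 309, 458, 429.9 and 379.8 with estradiol, 227, 294, 333 and 168 with tamoxifen and 195, 154, 111 and 157 with both. Tamoxifen 4 lay below combination 1, and the combination arrays were otherwise the lowest. The changes were -0.40 with estradiol, -1.05 with tamoxifen and -1.74 with both (interval -0.94 to 0.36). CD8B, a chain of the cytotoxic T cell co-receptor, changed by -1.03 with estradiol, -0.88 with tamoxifen and -1.71 with both (interval -0.55 to 0.95). CORO2B had the interaction nearest to 0 of those named, 0.02, with changes of -0.55 with estradiol, -0.51 with tamoxifen and -1.05 with both. GSTM3 and PRRX1, a mesenchymal transcription factor, had 0.03 and -0.20. The 48 genes became 2 with the actin covariate, and 22, 30, 24, 19 and 30 without control 1, tamoxifen 3, tamoxifen 4, combination 1 and combination 3.

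A kept estradiol response was looked for in genes with a main effect of estradiol and none of tamoxifen. The interaction interval lay inside a 2-fold change in 436, but it passed in 142 of them and opposed in 421, and a 2-fold margin is wider than most estradiol changes, so that this rule cannot separate a kept from a lost response. The 5 largest main effects upward were in TBX2, LRFN4, QPRT, ZNF668 and LOC702527, and the 5 largest downward in C1H1orf115, DNAJA1, LRIG3, RLF and EBF1. TBX2, a transcription factor, gave 79.5, 122, 74.5 and 141 with tamoxifen and 182, 159, 217 and 183 with both, with all 4 combination arrays higher. Its estradiol change was 1.02 without tamoxifen and 0.84 with it. Even there the change with tamoxifen did not pass. EBF1, a transcription factor of mesenchyme and B cells, changed by -0.75 and -0.46. The other 4 upward genes ran from 0.67 to 0.89 without tamoxifen and from 0.34 to 0.52 with it, and the other 4 downward genes from -1.01 to -0.70 and from -0.61 to -0.37. The 436 genes became 287, 246, 238, 250 and 265 without control 1, estradiol 1, estradiol 2, tamoxifen 3 and combination 1, and 41 with the actin covariate. For DNAJA1, 2 other probe sets passed with the opposite sign, so the gene's value is uncertain.

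**Figure D4:**
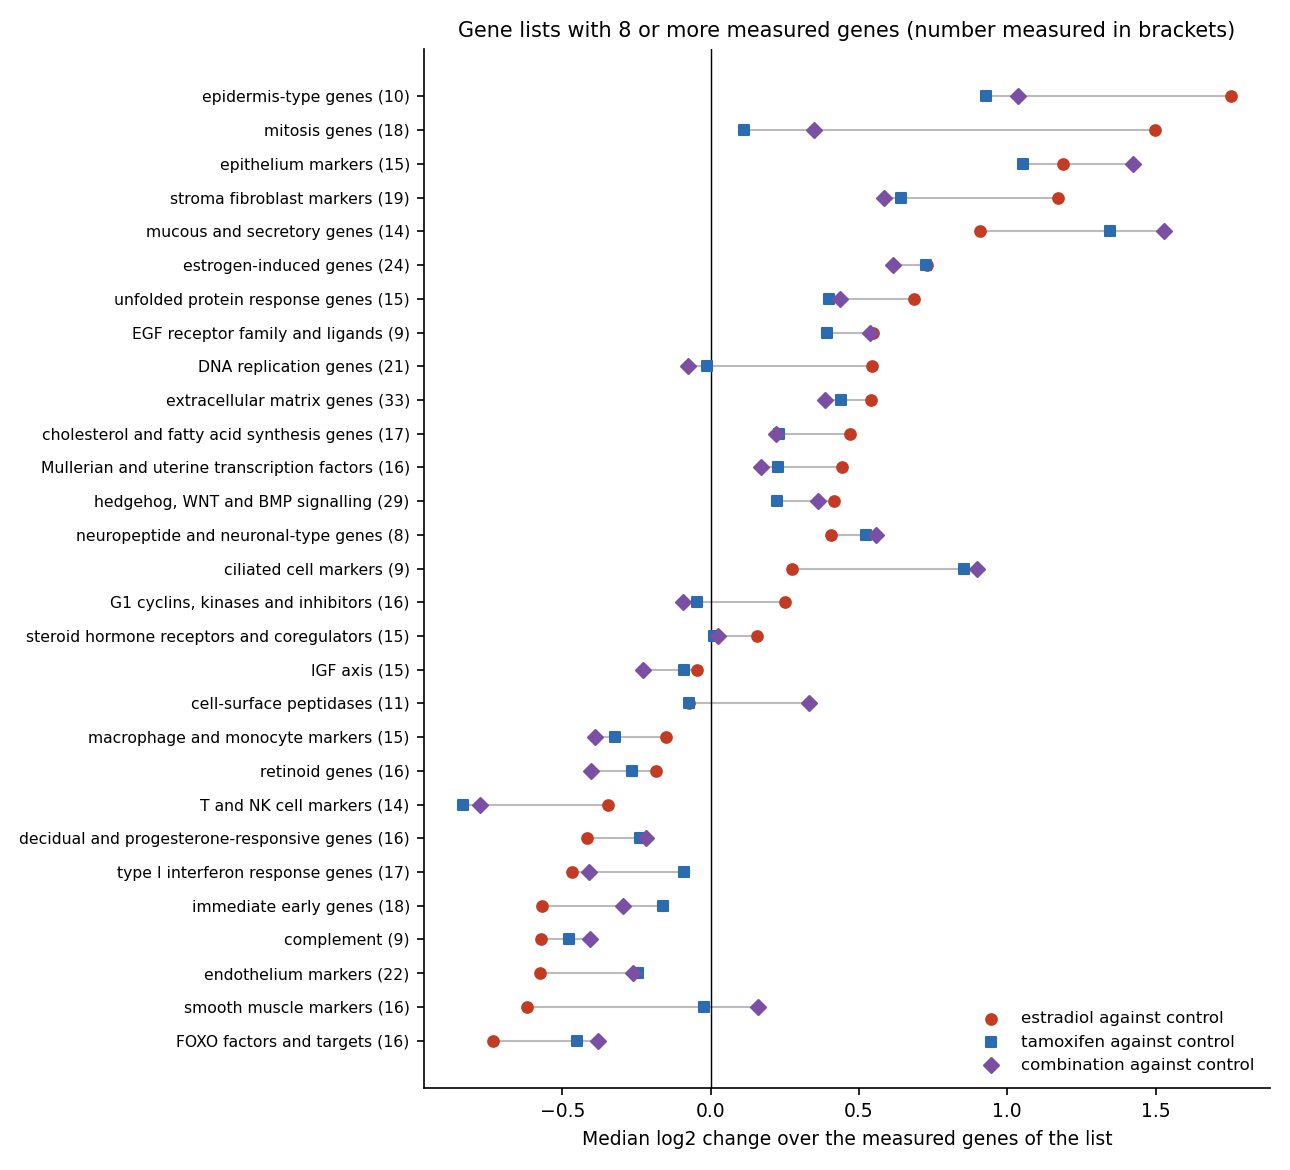
Median log2 change against control over the measured genes of each list with 8 or more of them, for estradiol, tamoxifen and the combination. Mitosis and DNA replication genes have estradiol far to the right of the other drugs, while the 3 marks of the estrogen-induced genes lie between 0.62 and 0.73.

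Markers of other cell types were read the same way. By limma, 0 of the 16 smooth muscle, 14 T and NK cell and 15 macrophage and monocyte markers passed, where 11.3% of all genes did; at an unadjusted p below 0.05 there were 3, 0 and 0. The smooth muscle list had a median interaction of 0.91, which was -0.03 without estradiol 4, the array low in these markers. With the actin covariate 4 of them passed above 0, at a median of 2.84. Estradiol 4 also had the highest actin ratio of its arm, 0.83 against 0.41 to 0.54, and the covariate fit was not repeated without it. Of 22 endothelium markers 2 passed below 0 and 3 above 0, against 6.55% and 4.77% of all genes, and 11 fell with estradiol alone, where 13.2% of all genes fell. Their median interaction was 0.56, and 0.37 without estradiol 4. The 2 below 0 became 1 without any 1 array other than control 3, estradiol 3, tamoxifen 2 or combination 2, with a replicate block and with the actin covariate. Of the 14 T and NK cell markers 5 fell with tamoxifen, 6 with the combination and 1 with estradiol. The shares of all genes that fell were 7.64%, 9.09% and 13.2%. The median interaction of the T and NK cell list was 0.21. LYZ, lysozyme, on both the macrophage and the secretory list, changed by 1.30 with estradiol, 2.58 with tamoxifen and 2.82 with both, and its interaction of -1.06 (SE 0.69, adjusted p = 0.356) did not pass. CCL11, the eosinophil attractant eotaxin, had the largest interaction of all genes, 4.82 (SE 1.52, adjusted p = 0.0572), and did not pass, its estradiol signals being 102, 51.6, 687 and 19.2. CRABP2, a retinoic acid carrier, had -1.84 (SE 0.60, adjusted p = 0.0662). CYP1B1, which hydroxylates estradiol, changed by 0.52 (SE 0.41, adjusted p = 0.389) with estradiol, which did not pass. Tamoxifen on top of estradiol changed it by -1.79 (SE 0.41, adjusted p = 0.0484), and its interaction was -1.02 (SE 0.58, adjusted p = 0.289).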

How the data were processed

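Endometrial RNA of 16 macaques was hybridised to 1-colour oligonucleotide arrays designed for the rhesus macaque, 1 array per animal. The deposited values are linear signal intensity per probe set, which the authors computed with GCOS, Affymetrix Expression Console and MAS5, per the submitters' processing notes, which give no version here. The values showed a common trimmed mean of 250.0 (2% cut at each end), so totals cannot differ between arms.

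A pseudocount of 4.81 (the 10th percentile of signals) was added before log2; 99 control probe sets and the 40% of the others with the lowest mean were left out, which kept 31659 of 52865. Low genes therefore have understated changes. limma 3.58.1 in R 4.3.3 fitted the 4 arms without a block (12 residual degrees of freedom, empirical Bayes with trend), with Benjamini-Hochberg adjustment over all tested probe sets. The procedure was tested on simulated data. Gene symbols came from the platform annotation, which can be old: 24969 probe sets had 1 symbol, 361 several and 27535 none, and a gene was followed through its brightest probe set (10705 genes). Symbols from a rhesus design were applied to cynomolgus RNA.

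Classes were defined on genes whose interaction passed. Blocked genes had an estradiol change past the threshold, with tamoxifen and combination changes under 0.5 of it. Saturated genes had both single-drug changes past the threshold in one direction, a combination change of at least 0.5 of the smaller, and an opposing interaction. Additive genes had both main effects past the threshold in one direction and a 95% interval of the interaction inside a 2-fold change. Named genes were the 12 highest and 12 lowest interactions past the threshold, up to 3 members of each of 32 gene lists and up to 6 of each class by smallest p, the 5 highest and 5 lowest additive and kept genes, and ESR1, PGR, GREB1, MKI67, TOP2A, IGF1 and TFF3. The classes and lists were chosen with earlier results of these data known. Replicate numbers did not pair arrays: over 24 same-numbered pairs of different arms, correlations of deviations ran from -0.27 to 0.09. Over 72 pairs with different numbers they ran from -0.50 to 0.51, with 11 over 0.1, so a factor shared by arrays apart from their numbers is not excluded. Alternatives were other pseudocounts, filters, normalization, variance settings, array weights, the signal scale, a replicate block, each array left out, 2 arrays left out together and the actin ratio as covariate. The labels name randomized animals, so replicates are animals; 4 per arm limit the precision.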

Additional observations from a re-analysis of the deposited data

Results flagged for a closer look

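The estradiol effect differed with and without tamoxifen in 1212 genes by the interaction test, the comparison described above. Separately, in 30 of 520 arm groups of 4 arrays (130 genes), 1 array lay so far from the other 3 that its gap to the nearest, as a share of the arm's whole range on the log2 scale, passed Dixon's critical value. Chance flags about 1 in 20 such groups. That share stands in parentheses after each gene.

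Of the 30, 11 were in estradiol 3, which was the lowest of its arm for CCNB1 (0.905), COL1A2 (0.880), HTT (0.943), KIF4A (0.889), KMO (0.836), MCM10 (0.895), MEST (0.868), SLC25A5 (0.895) and TOP2A (0.975) and the highest of its arm for CD200R1 (0.855) and PID1 (0.866). Combination 1 was the lowest of its arm for FOXO4 (0.887) and PIK3IP1 (0.953) and the highest of its arm for DNAJA1 (0.888) and LOC702527 (0.866). Combination 3 was the highest of its arm for GADD45B (0.862). Combination 4 was the highest of its arm for FOS (0.894). Control 1 was the highest of its arm for RDH10 (0.839). Control 2 was the lowest of its arm for PCOLCE (0.868) and the highest of its arm for FIBIN (0.882). Control 3 was the lowest of its arm for CORO2B (0.850) and the highest of its arm for AGR3 (0.878). Control 4 was the lowest of its arm for CCNB1 (0.842) and the highest of its arm for KMO (0.836). Estradiol 4 was the highest of its arm for AGR3 (0.856). Tamoxifen 1 was the lowest of its arm for CD200R1 (0.865) and the highest of its arm for PGR (0.873). Tamoxifen 2 was the lowest of its arm for CDT1 (0.924) and QPRT (0.885). Tamoxifen 4 was the lowest of its arm for CHDH (0.854).

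Estradiol 3 lay toward the control level in KIF4A, CCNB1, TOP2A and MCM10, which rose with estradiol, and in PID1 and CD200R1, which fell. The cause was not tested.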

How the results depend on the processing

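The median half-width of the interaction's 95% interval was 0.51 log2 units, and the smallest interaction that passed in the blocked and saturated classes was 0.35 in size. Genes near background have understated changes. No gene past the interaction threshold turned sign under any of the 29 alternatives, and estradiol on top of tamoxifen changed 0 genes in each of them (2.91% to 6.62% of probe sets at an unadjusted p below 0.05). With a replicate block the interaction passed in 1039 genes, 987 of them among the 1212, with 676 saturated and 151 blocked, and no count over all genes moved by over 1.5 times. Over gene lists it moved some. For example, DNA replication genes lowered by tamoxifen on top of estradiol went from 7 to 4 and endothelium markers passing below 0 from 2 to 1. Every correlation between same-numbered arrays of different arms was under 0.1. With the actin ratio as covariate, chosen after seeing the data, the counts were 367 for the interaction (228 below 0, 139 above 0), 583 and 57 for the main effects of estradiol and tamoxifen, 1330 and 97 for each drug alone, 61 saturated, 16 blocked, 0 more than additive, 2 additive and 41 kept, and 54 of 101 named genes still passed; the interaction was -0.036 for GSTM3 and 0.47 for KALRN. With array weights they were 2179 for the main effect of estradiol, 659 for tamoxifen on top of estradiol, 328 blocked, 87 additive and 814 kept, and the interaction was -0.029 for CORO2B and -0.15 for DNAJA1. On the signal scale they were 234 for tamoxifen on top of estradiol, 5 more than additive, 94 additive and 696 kept, and the interaction (relative signal) was 0.15 for BTC, 0.084 for IL15, 0.076 for KALRN and 0.0080 for PRRX1. With no filter, tamoxifen on top of estradiol gave 82, more than additive 1 and additive 24; without the variance trend additive was 27. Without estradiol 4 and tamoxifen 1 the interaction was -0.17 for DNAJA1, -0.0049 for GSTM3, 0.00070 for TBX2 and -0.14 for THSD4. Over the 16 fits without 1 array, the interaction count ran from 725 to 1761 (below 0 from 435 to 1018, above 0 from 290 to 743), the main effect of estradiol from 849 to 1823 and of tamoxifen from 363 to 611, tamoxifen alone from 1154 to 1940 and on top of estradiol from 18 to 462, blocked from 80 to 426, saturated from 501 to 990, more than additive from 0 to 4, additive from 19 to 47 and kept from 238 to 593. In those fits the interaction ran from -0.098 to 0.16 for CORO2B, -0.12 to 0.16 for GSTM3, -0.16 to 0.27 for DNAJA1, -0.32 to 0.11 for TBX2, -0.015 to 0.30 for THSD4 and -0.059 to 0.44 for CD8B. Of 101 named genes past the threshold, 80 passed in all 16. The cause of these shifts was not tested.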
